A study of Sus scrofa with 6 samples.

Results

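Genes through which macrophages sense, take up, store and export lipid were followed across sorted porcine blood monocytes. They were fixed by name as 8 genes: the nuclear receptors PPARG and NR1H3, the uptake genes CD36 and LPL, the fatty acid carrier FABP4, and the efflux genes APOE, ABCA1 and ABCG1. In the array's annotation 7 of the 8 had a probe set under their symbol, with 25 probe sets in all, out of 47722 tested and 13755 annotated genes. NR1H3 was not analysed here. Each gene was represented by its brightest probe set over the 6 arrays, and the others served as a check.

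CD163high monocytes (sorted as CD14low-CD163high) and CD163low monocytes (sorted as CD14high-CD163low) came from the same 3 piglets, aged 8 weeks, of an F1 cross of Large White and Landrace. Red cells had been lysed, and the mononuclear cells had been frozen and thawed before they were stained and sorted. RNA of every sorted pool went on 1 array, which gave 3 arrays per group. CD14 and CD163 defined the gate, so their own levels are a check of the sort.

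In macrophages, cholesterol reaches the cell as lipoprotein or as engulfed membrane. PPARG binds fatty acid derivatives and NR1H3 (LXR alpha) binds oxidised cholesterol, each as a partner of a retinoid X receptor, and both switch on genes of lipid handling. CD36 takes up fatty acids and oxidised lipoprotein, LPL releases fatty acids from triglyceride, and FABP4 carries them inside the cell. ABCA1 and ABCG1 move cholesterol out of the cell to lipoproteins and APOE is a carrier protein secreted with it. In mouse and human macrophages CD36 and FABP4 are known targets of PPARG, and ABCA1, ABCG1, APOE and LPL of the LXR receptors.

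Signals are log2 values of summarised probe intensities, differences are CD163high minus CD163low, and group values are means ± SD over 3 arrays. On each array 69 probe sets serve as background controls, and their mean lay between 2.60 and 3.67, highest in CD163high of pig 3 and next highest, at 3.29, in CD163low of pig 1. Signals near or under that mean have uncertain sizes. CD163 had 8.17, 7.98 and 7.61 in CD163high of pigs 1, 2 and 3, against 4.97, 6.17 and 6.54 in CD163low monocytes. Its dimmer probe set had 5.37, 5.29 and 4.28 against 3.14, 4.29 and 4.34 in the same order, and these groups overlapped. The CD14 difference was -1.07 ± 0.47 (SE). The CD14 groups also overlapped, although CD14 was lower in CD163high of every pig. The Y-linked gene EIF1AY had 9.16, 9.17 and 4.57 in CD163high and 5.09, 9.12 and 6.88 in CD163low of pigs 1, 2 and 3, so the arrays labelled as pig 1 and as pig 3 differed in a gene whose presence is a property of the animal. The 2 lowest EIF1AY values were on the 2 arrays with the highest background means, CD163high of pig 3 and CD163low of pig 1. All 6 EIF1AY values lay above the background means of their arrays, and the reason for them was not tested. Differences within a pig, and fits with the pig as a block, follow the labels. Of 12 monocyte markers 9 were measured and 0 of those lay under the background mean on any array. Markers of 8 other kinds of cells were also read. Of the measured markers, 7 of 9 for monocytes and 4 of 5 for neutrophils were lower in CD163high monocytes. So were 8 of 8 for T cells, 5 of 6 for B cells and 7 of 8 for NK cells. Dendritic cell markers and adipocyte and endothelial markers each had 5 of 7 lower, platelet markers 5 of 9 and erythroid markers 2 of 5. Over all genes 7195 of 13755 were lower. A limma unadjusted p under 0.05, which 3.27% of all genes reached, was found for 0 genes of the T, B and NK cell lists. With lists this short and that share, the 0 is not read as a result about these cells. The same p was found for 2 monocyte markers, CD163 among them, for 1 neutrophil and 1 dendritic cell marker, and for 0 of the remaining lists. The B cell gene MS4A1, picked after its values were seen, differed by -1.73 ± 1.05 and was lower in CD163high of every pig. BANK1, of the same list, went the other way with 0.74 ± 0.55 and was higher in CD163high of every pig. The summed levels are given beside the genes they varied with.

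ABCA1 was the 1 member in which every CD163high array lay above every CD163low array. Its log2 signal was 5.42, 5.27 and 5.93 in CD163high of pigs 1, 2 and 3, against 4.18, 4.36 and 5.04 in CD163low monocytes. The groups did not overlap, and the gap between the lowest CD163high and the highest CD163low array was 0.23. In both groups the array of pig 3 was the brightest. The means were 5.54 ± 0.35 and 4.53 ± 0.46 (SD, n = 3 each), a difference of 1.01 ± 0.30 (SE) or 2.02-fold. The differences within pigs 1, 2 and 3 were 1.24, 0.91 and 0.88 with the arrays paired as labelled. ABCA1 encodes the membrane transporter that loads cholesterol and phospholipid onto apolipoprotein A-I.

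The ABCA1 difference did not pass the test across the array (limma adjusted p = 1). Its limma unadjusted p was 0.0144, and 0.00379 with the pig as a block, where the adjusted p was also 1. The block, like the differences within pigs, depends on the labelled pairing. EIF1AY differed between the arrays labelled as pig 1 and between those labelled as pig 3, for a reason that was not tested. Neither fit called any of the 47722 probe sets at an adjusted p of 0.05 (0.00% in both), while 1235 had an unadjusted p under 0.05 without the block and 1917 with it. An exact two-sided permutation test over the 6 arrays gave p = 0.1, the smallest that 3 against 3 allows. Array weights, which gave CD163low of pig 3 the largest weight (5.79), moved the difference to 0.51 ± 0.24. It was 0.64 ± 0.30 without the 2 arrays of highest background. The limma unadjusted p was 0.0787 with array weights and 0.0967 without those arrays. Leaving out pig 1 gave 0.90 with a limma unadjusted p of 0.0844, and leaving out pig 2 gave 1.06 with 0.0511. Leaving out pig 3 gave 1.08 with a limma unadjusted p of 0.00868.

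The other, dimmer ABCA1 probe set pointed the same way. It had 3.96, 2.66 and 2.44 in CD163high of pigs 1, 2 and 3, against 2.14, 2.00 and 2.05 in CD163low monocytes. Here too the groups did not overlap, but only CD163high of pig 1 lay above its array's background mean, so the size is uncertain. The difference was 0.95 ± 0.41 (limma unadjusted p = 0.056), with 1.81, 0.65 and 0.39 in the 3 pigs.

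**Figure D1:**
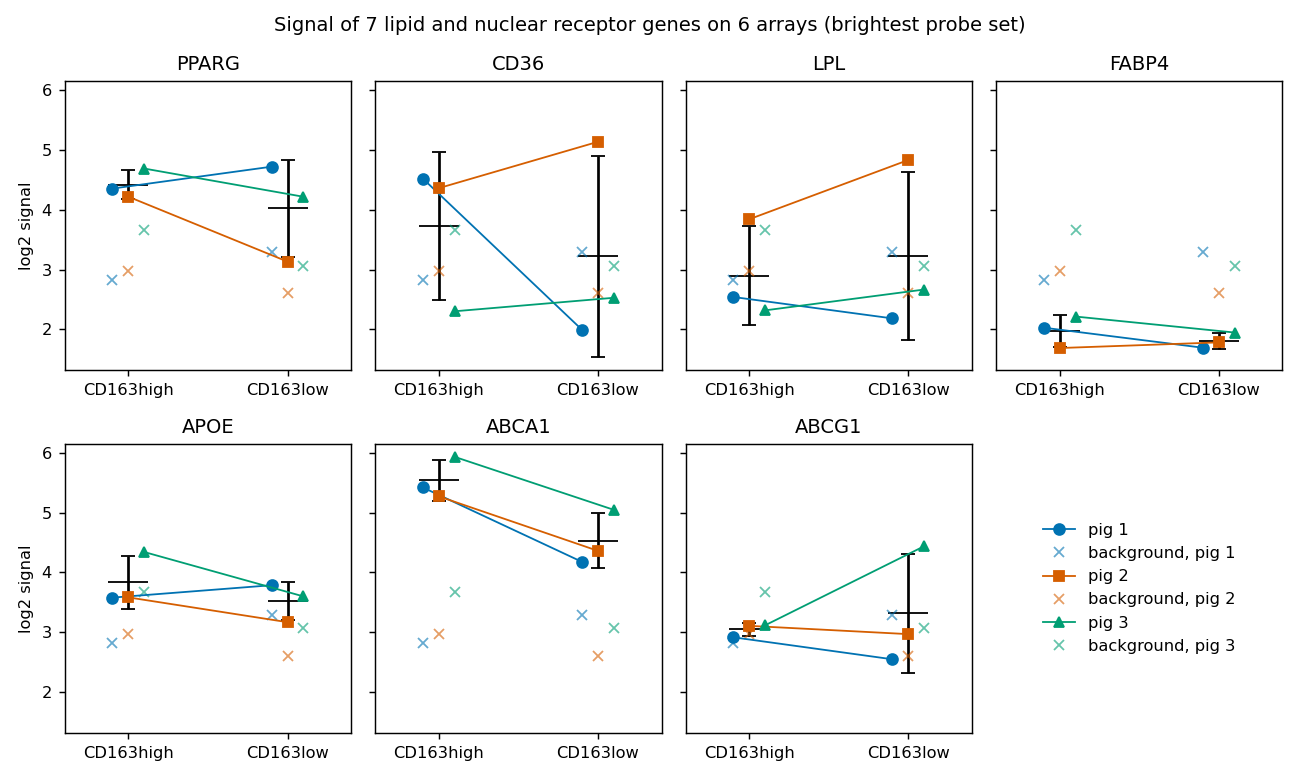
Log2 signal of the brightest probe set of 7 genes in CD163high (left) and CD163low (right) monocytes of 3 pigs. Lines join the arrays of a pig, black bars are mean ± SD over 3 arrays, and crosses are the mean of the background controls on each array. ABCA1 lies between 5.27 and 5.93 in CD163high and between 4.18 and 5.04 in CD163low, whereas the groups of the other 6 genes overlap and FABP4 lies under the background mean on all 6 arrays.

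ABCG1, the transporter that passes cholesterol to high-density lipoprotein particles, had groups that overlapped. Its signal was 2.92, 3.11 and 3.12 in CD163high of pigs 1, 2 and 3, against 2.55, 2.97 and 4.44 in CD163low monocytes. The CD163high arrays were close together and within the range of the CD163low arrays, and CD163low of pig 3 stood above all the others. The difference was -0.27 ± 0.48 (SE, limma adjusted p = 1), with 0.37, 0.14 and -1.32 in pigs 1, 2 and 3. Without CD163low of pig 3 it turned to 0.29, and with array weights, which favoured that array, it was -1.19 with a limma unadjusted p of 0.0352. Only 4 of the 6 arrays were above their background means. The other probe sets had differences of -0.34 ± 0.30 and -0.19 ± 0.22, with signals near the background mean.

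APOE, the apolipoprotein that macrophages secrete with exported cholesterol, had 1 probe set. Its signal was 3.58, 3.58 and 4.34 in CD163high of pigs 1, 2 and 3, against 3.79, 3.17 and 3.60 in CD163low monocytes. The groups overlapped and the highest value was CD163high of pig 3, the array with the highest background. The difference was 0.32 ± 0.29 (limma adjusted p = 1), with -0.21, 0.41 and 0.74 in the 3 pigs. It was 0.063 without CD163high of pig 3 and kept its sign in all settings run.

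Among the receptors, PPARG had 4.35, 4.22 and 4.69 in CD163high of pigs 1, 2 and 3, against 4.72, 3.13 and 4.22 in CD163low monocytes. The groups overlapped, and the spread in CD163low (SD 0.81) came mainly with the low array of pig 2. The difference was 0.40 ± 0.42 (limma adjusted p = 1), with -0.37, 1.08 and 0.47 in the 3 pigs. It was -0.048 without CD163low of pig 2. PPARG was above the background mean on every array.

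The 5 PPARG probe sets did not agree on a direction. The second brightest had 3.37, 3.09 and 4.01 in CD163high, against 4.48, 3.44 and 4.64 in CD163low of pigs 1, 2 and 3. CD163high was the lower one within each pig, although the groups overlapped between pigs. Its difference was -0.69 ± 0.40, with a limma unadjusted p of 0.131 without and 0.0312 with the pig as a block, and its adjusted p was 1 in both fits. The remaining probe sets, of which 2 lay under the background mean on all arrays, had differences of -0.16, 0.43 and -0.60. The mean of all 5 differed by -0.13. With other probe sets of opposite sign, the sign of the brightest one is not read as a direction of PPARG.

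CD36, the fatty acid and oxidised lipoprotein receptor, varied more between arrays than any other member, over a range of 3.14 on the log2 scale. Its signal was 4.52, 4.36 and 2.30 in CD163high of pigs 1, 2 and 3, against 1.99, 5.13 and 2.53 in CD163low monocytes. Both arrays of pig 2 and CD163high of pig 1 were bright, and the other 3 lay under their background means. The difference was 0.51 ± 0.97 (limma adjusted p = 1), made of 2.52 in pig 1 and of -0.77 and -0.23 in pigs 2 and 3. It became -0.50 without pig 1 and -0.10 without CD163low of pig 1. With array weights it was 1.55 and with the background signal as a covariate 1.09, with limma unadjusted p of 0.0371 and 0.0211.

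CD36 is also abundant on platelets. Of 10 platelet markers 9 were measured, 5 were lower and 4 higher in CD163high, and 6 lay under the background mean on at least 1 array. Their summed linear signal was between 189.3 and 199.0 in CD163high and between 208.3 and 279.5 in CD163low monocytes. The highest sum was in CD163low of pig 1, the array with the lowest CD36 signal. GP9 and TUBB1 were the brightest platelet markers on every array, so they weighed most in the sums. TUBB1, GP6 and TREML1 were highest in CD163low of pig 1. PPBP and ITGB3 were highest in CD163low of pig 2, where CD36 was also highest, and the other platelet markers peaked elsewhere. The part of platelets in the CD36 signal was not tested. Further CD36 probe sets were dim, and 5 of the 8 were under the background mean on all arrays. The second brightest had 2.52, 3.00 and 2.52 in CD163high, against 2.35, 2.36 and 2.38 in CD163low of pigs 1, 2 and 3. These groups did not overlap, but only CD163high of pig 2 was above its background mean. The difference was 0.32 ± 0.19 (limma unadjusted p = 0.148).

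LPL, lipoprotein lipase, was bright in 1 pig. It had 2.54, 3.84 and 2.32 in CD163high of pigs 1, 2 and 3, against 2.19, 4.83 and 2.67 in CD163low monocytes. Only the 2 arrays of pig 2 were above their background means. The difference was -0.33 ± 0.77 (limma adjusted p = 1), with 0.36, -0.99 and -0.35 in the 3 pigs, and it was 0.005 without pig 2. The other 3 probe sets of LPL lay under the background mean on all arrays.

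Summed markers of other blood cells were also high in pig 2. Erythroid markers, of which 5 of 7 were measured and 4 lay under the background mean on some array, had a summed linear signal of 2148 in CD163high and 1809 in CD163low of pig 2, and between 44.8 and 61.9 on the other 4 arrays. T cell markers (8 of 10 measured) summed to 2222 in CD163high and 2562 in CD163low of pig 2, against 547.5 to 1257 elsewhere. B cell markers (6 of 8 measured) summed to 1744 and 1766, against 498.7 to 1059. Single bright genes weighed most in these sums, HBB for the erythroid sums of pig 2, and CD2 and BANK1 for T and B cells on every array. Not every marker was highest in pig 2. SLC4A1 had 3.10 and 3.33 in CD163high and CD163low of pig 2, against 3.53 in CD163low of pig 1. BANK1 had 9.37 in CD163low of pig 2, against 9.83 in CD163high of pig 1. The part of these cells in the LPL and CD36 signals of pig 2 was not tested. In RNA from sorted pools, fewer cells of a type and less RNA per cell cannot be told apart.

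FABP4, the fatty acid binding protein of adipocytes and macrophages, was the dimmest member. It had 2.03, 1.69 and 2.22 in CD163high of pigs 1, 2 and 3, against 1.70, 1.78 and 1.95 in CD163low monocytes. All 6 values lay under the background mean of their arrays, as did those of its other probe set. Its positive difference of 0.17 ± 0.20 is therefore not read as a direction. Of all annotated genes 2.81% had a lower mean signal.

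Pig by pig, PPARG differed by -0.37, 1.08 and 0.47 in pigs 1, 2 and 3, where CD36 had 2.52, -0.77 and -0.23. In pig 3 the efflux transporters had 0.88 for ABCA1 and -1.32 for ABCG1. Whether these genes differ from each other was not tested.

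**Figure D2:**
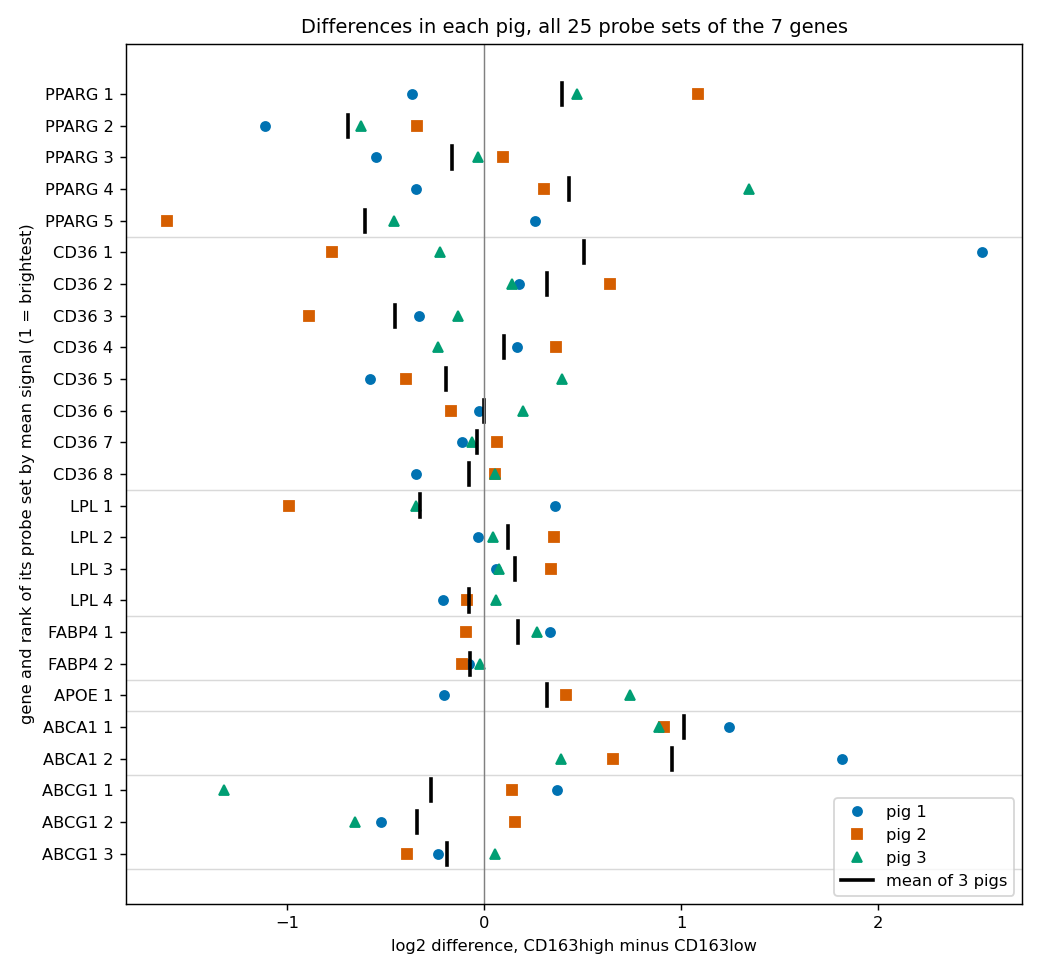
Log2 difference between CD163high and CD163low monocytes in each of 3 pigs for all 25 probe sets of the 7 genes, ranked within a gene by mean signal. Black bars are the mean of the 3 pigs. Both ABCA1 probe sets lie above 0 in every pig, while the 5 PPARG and 8 CD36 probe sets lie on both sides of 0.

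Over the 7 measured genes 5 had a positive and 2 a negative difference, and the median was 0.32, against -0.013 over all 13755 genes. The 5 include PPARG, whose probe sets disagreed in sign, and FABP4, which lay under background, so the tally counts signs of the brightest probe sets only. In pigs 1, 2 and 3 the medians of the 7 were 0.36, 0.14 and 0.27. ABCA1 alone had an unadjusted p under 0.05, which 3.27% of all genes reached, 1.84% as higher and 1.43% as lower in CD163high. With the pig as a block it was again 1 of 7, where 5.12% of genes reached it. Groups that do not overlap were likewise found for 1 of 7, against 6.18% of all genes and 3.02% with CD163high on top. With the second brightest probe set of each gene the median was 0.025, and 0 reached an unadjusted p under 0.05 in limma. Over all 25 probe sets, 11 differences were positive and 14 negative.

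The receptors' relatives and partners were mostly measured above background. Of 18 listed, 17 had a probe set, 5 were higher and 12 lower in CD163high, with a median of -0.20. None was called at an adjusted p of 0.05 by limma, and 0 had an unadjusted p under 0.05, which 3.27% of all genes had. PPARD, the most widely expressed PPAR, had 4.63, 5.08 and 4.79 in CD163high of pigs 1, 2 and 3, against 5.55, 5.00 and 5.84 in CD163low monocytes. These groups overlapped through pig 2, and the difference was -0.63 ± 0.27. It was -0.98 without pig 2. The coactivator genes NCOA2 and NCOA3 had -0.92 ± 0.39 and -0.39 ± 0.18. NCOA2 had a limma unadjusted p of 0.0554, and of 0.00555 with the pig as a block. NCOA3 was the 1 gene of the 17 with groups that did not overlap, which 6.18% of all genes had. Its difference was 0.024 over the mean of its 5 probe sets.

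Other lipid uptake genes went both ways. Of 15 listed, 11 were measured, 8 higher and 3 lower, with a median of 0.41, and 3 had groups that did not overlap, all with CD163high on top, which 3.02% of all genes had. These 3 were LRP1, LIPC and OLR1, an oxidised lipoprotein receptor named after its values were seen, whose gap was only 0.0092. OLR1 was above the background mean on 4 of the 6 arrays. LRP1, a large endocytic receptor that binds APOE-carrying particles, had 5.85, 6.85 and 5.27 in CD163high of pigs 1, 2 and 3, against 5.17, 4.62 and 4.92 in CD163low monocytes. The gap between its groups was 0.095 and the difference was 1.09 ± 0.42 (limma unadjusted p = 0.0385), with 0.68, 2.23 and 0.35 in the 3 pigs. With the pig as a block the limma unadjusted p was 0.0537. Without pig 2 the difference was 0.51 with an unadjusted p of 0.159 in limma, and over the mean of its probe sets it was 0.55. SORL1, a sorting receptor related to the LDL receptor, had 4.67, 6.63 and 4.38 in CD163high, against 6.36, 7.48 and 8.38 in CD163low of pigs 1, 2 and 3. CD163high was the lower one in each pig, with differences of -1.69, -0.85 and -3.99, and the groups overlapped. The mean difference was -2.18 ± 0.75 (limma unadjusted p = 0.0253), and it was -1.27 without pig 3 with an unadjusted p of 0.181 in limma. NK cell markers summed to 562.0, 1349 and 579.1 in CD163high of pigs 1, 2 and 3, against 791.9, 1495 and 1065 in CD163low monocytes. These sums were lower in CD163high of every pig, as were the neutrophil sums given below for ACSL1. Single NK cell markers did not all follow the sums. In pigs 2 and 3 NKG7, NCR1, GZMB and NCR3 were higher in CD163high, while GNLY, KLRK1 and KLRB1 were lower. GNLY, among the brightest of the list, had -0.48, -0.21 and -2.20 in pigs 1, 2 and 3. The part of these cells in the SORL1 difference was not tested. LIPC differed by 0.41 ± 0.19 with all its signals under the background mean.

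Among genes of lipid storage and hydrolysis, SOAT1 and ACSL1 lay apart in opposite directions. Of 21 listed, 20 were measured, 6 higher and 14 lower, with a median of -0.057. Groups that did not overlap were found for 2 of the 20, against 6.18% of all genes. SOAT1, which esterifies cholesterol for storage in droplets, had 6.64, 5.94 and 4.61 in CD163high of pigs 1, 2 and 3, against 4.10, 4.35 and 3.74 in CD163low monocytes. The groups did not overlap, with a difference of 1.67 ± 0.52 (limma unadjusted p = 0.0168). It was 1.23 without pig 1 and 1.71 without pig 2, and the limma unadjusted p was then 0.0878 and 0.071. ACSL1, which activates long-chain fatty acids, had 7.29, 7.32 and 7.26 in CD163high, against 8.20, 8.01 and 8.75 in CD163low of pigs 1, 2 and 3. Its CD163high arrays were nearly equal and all below CD163low, and the difference was -1.03 ± 0.23 (limma unadjusted p = 0.00376). Neutrophil markers (5 of 8 measured) summed to 454.2, 339.0 and 903.2 in CD163high of pigs 1, 2 and 3, against 1313, 762.3 and 1813 in CD163low monocytes, lower in CD163high of every pig. Among them CXCR2 differed by -2.66 ± 0.41 and CSF3R by -1.09 ± 0.56, both picked after their values were seen. MMP9, MPO and LTF had -0.093 ± 0.30, -0.097 ± 0.33 and 0.10 ± 0.34, and LTF lay under the background mean on all 6 arrays. CSF3R was the brightest of the 5 on every array, so it weighed most in the sums. The part of neutrophils in the ACSL1 difference was not tested. CIDEB, a lipid droplet protein, had 0.79 ± 0.37, and 0.47 to 1.36 with a pig or array left out. All 3 had a limma adjusted p of 1.

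Further genes of sterol traffic and efflux had differences on both sides of 0. Of 18 listed, 14 were measured, 5 higher and 9 lower, with a median of -0.18. The smallest p belonged to CYP27A1, a sterol 27-hydroxylase (-0.37 ± 0.18, under the background mean on 4 arrays), ABCG2, a drug and urate transporter (0.80 ± 0.45), and APOC2, the cofactor of LPL (-0.29 ± 0.18). The known LXR targets MYLIP, PLTP, LPCAT3 and SREBF1 were picked by name after their values were seen. Their differences were -0.48 ± 0.44, -0.055 ± 0.34, -0.12 ± 0.85 and -0.040 ± 0.26. Of 20 listed genes of sterol and fatty acid synthesis 16 were measured, 6 higher and 10 lower, with a median of -0.14. SQLE, INSIG2 and SREBF2, which make or control sterol, had -0.85 ± 0.51, -0.87 ± 0.55 and -0.74 ± 0.49. With a pig or array left out SQLE ran from -1.32 to -0.32, INSIG2 from -1.29 to -0.31 and SREBF2 from -1.48 to -0.092. SQLE was -0.012 without the 2 arrays of highest background, and SREBF2 had -2.03, 0.74 and -0.92 in pigs 1, 2 and 3. In these 2 lists limma called 0 genes, and 0 had an unadjusted p under 0.05, which 3.27% of all genes had. Groups that did not overlap were found for 1 of the 14, CYP27A1, and for 0 of the 16, against 6.18% of all genes. ABCG2 had a limma unadjusted p of 0.128 without and 0.0343 with the pig as a block. Its difference ran from 0.49 to 1.22 with a pig or array left out.

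Genes listed as PPAR targets of fatty acid oxidation had the highest list median. Of 13 listed, 11 were measured, 10 higher and 1 lower, with a median of 0.79. The medians in pigs 1, 2 and 3 were 0.39, 0.63 and 0.59. Over all genes the medians were -0.12, 0.024 and 0.014 in the same pigs, and 6560 of 13755 genes were higher. The 10 include PDK4 at 0.0094, under the background mean on all 6 arrays, and UCP2 at 0.097, lower in 2 pigs. Higher in every pig were 3 of the 11, against 10.5% of all genes. A limma unadjusted p under 0.05 was found for 1 of the 11, against 3.27% of all genes. Groups that did not overlap were found for 1 of the 11, against 6.18%. SLC25A20, the carrier of acylcarnitine into mitochondria, had 3.85, 4.43 and 4.17 in CD163high of pigs 1, 2 and 3, against 3.45, 3.34 and 3.27 in CD163low monocytes. The groups did not overlap, although the signal was under 1 log2 unit above the background mean on 4 arrays. The difference was 0.79 ± 0.20 (limma unadjusted p = 0.00713, adjusted p = 1). Without pig 2 or pig 3 the limma unadjusted p was 0.0544 and 0.0644. ACADM, which oxidises medium-chain fatty acids, had 1.38 ± 0.72, with 3.29, 0.068 and 0.79 in pigs 1, 2 and 3. Without pig 1 the ACADM difference was 0.43. ACAA2, a thiolase, had 1.01 ± 0.52, and 0.62 to 1.43 with a pig or array left out. ACAA2 had differences of 1.09, 0.94 and 0.99 in pigs 1, 2 and 3 with the arrays paired as labelled. Its limma unadjusted p was 0.0983 without and 0.00284 with the pig as a block, which depends on that pairing. Its groups overlapped, and only 3 of the 6 arrays were above their background means. The list median ran from 0.41 to 0.83 over the settings run, with 8 to 10 genes higher.

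**Figure D3:**
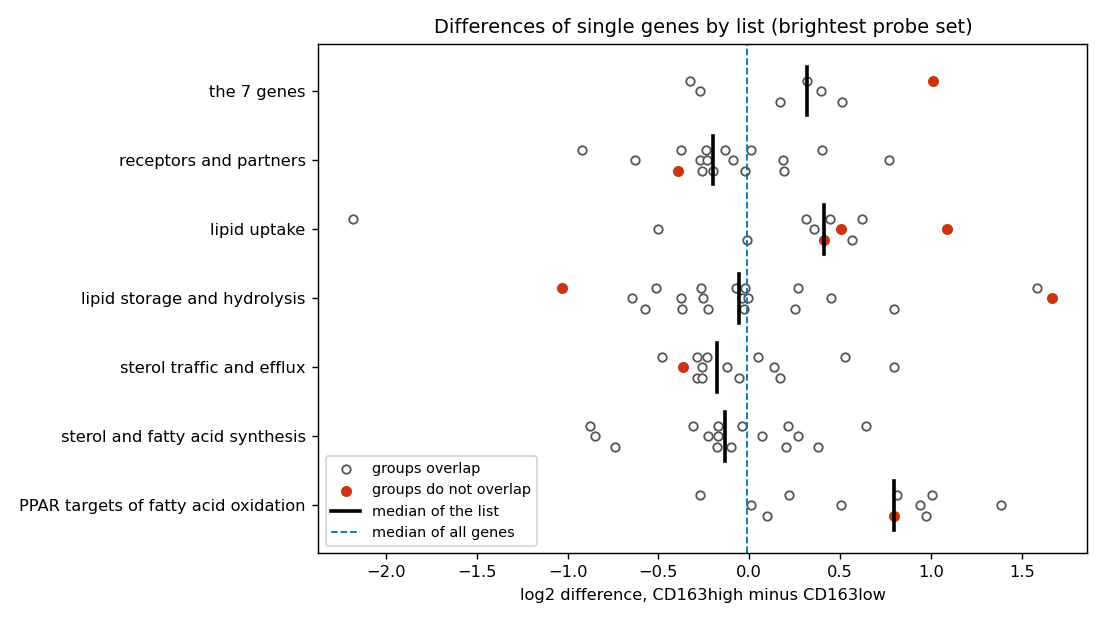
Log2 differences between CD163high and CD163low monocytes for the 7 genes and for 6 lists around them, 1 point per gene by its brightest probe set. Filled points are genes whose groups of 3 arrays do not overlap, black bars are list medians, and the dashed line is the median of all genes at -0.013. The fatty acid oxidation list has a median of 0.79, and the storage list holds both SOAT1 at 1.67 and ACSL1 at -1.03.

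The genes with a signal pattern most like that of ABCA1 were DNAJB2, RAP2B and RNF2, with Pearson correlations of 0.996, 0.987 and 0.982 over the 6 arrays among 8204 genes above the background mean on every array. For ABCG1, the negative member with the smallest p, they were SLC36A1, OGFRL1 and SLC35D1, at 0.983, 0.981 and 0.977, and all 3 had their highest signal in CD163low of pig 3. With so few arrays, which share pigs, these values describe likeness only.

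**Figure D4:**
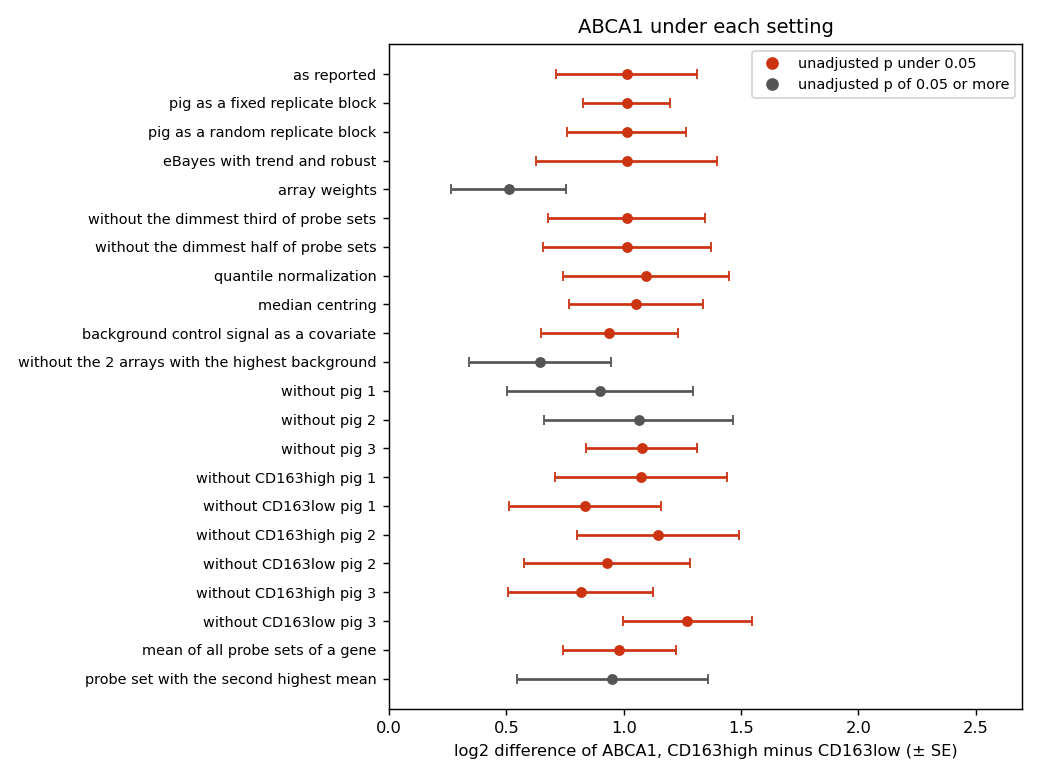
Log2 difference of ABCA1 between CD163high and CD163low monocytes with its standard error as reported and under 21 other settings. Filled circles in red have an unadjusted limma p under 0.05 and those in grey do not. Every difference is above 0, from 0.51 with array weights to 1.27 without CD163low of pig 3.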

How the data were processed

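The 6 deposited columns hold one probe-set intensity per array. The submitters' processing notes list RMA and limma, with no version and no role for either. RMA, where applied, makes arrays alike in distribution and compresses differences of dim probe sets. The first 186 rows are log2 values. In the other 47659 rows the log2 of each value fell on a grid of 0.0001 (within 1e-06), so log2 was taken of these rows only, per the deposited values. Array controls (123) were left out. Of the 47722 probe sets 26426 had 1 gene symbol, 0 several and 21296 none; 1 listed gene was found by an older symbol in RefSeq (Sscrofa11.1).

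No genome build was used, and promoter motifs were not analysed here. limma 3.58.1 in R 4.3.3 (lmFit, eBayes) was fitted to all probe sets, two-sided, with Benjamini-Hochberg adjustment and a threshold of 0.05. It was tested on simulated data. As reported, the fit has no block, so both arrays of an animal count as independent. The labels pair arrays by pig; deviations from group means correlated at -0.196, 0.668 and 0.261 in pigs 1, 2 and 3. The precision is limited by the number of arrays. Members, gene lists and alternatives were chosen with earlier results of these data known. Named are the members, up to 3 genes of smallest p per list, and 3 genes of most similar pattern for the member of smallest p in each direction, with CD14 and CD163. EIF1AY and a few markers were added after their values were seen. Alternatives were blocks, variance models, array weights, filters, normalizations, other probe sets, background and left-out arrays; those of the list genes were added after seeing the data.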

Additional observations from a re-analysis of the deposited data

How the results depend on the processing

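In every fit run limma called 0 probe sets at an adjusted p of 0.05, and ABCA1 and APOE kept their sign in all alternatives. ABCA1 lay between 0.51 and 1.27, with unadjusted p from 0.00379 to 0.0967. Unadjusted p-values under 0.05 were found for 1235 probe sets as reported, for 1917 and 1875 with the pig as a fixed or random replicate block, 8884 with array weights, 785 and 604 with the milder and the stricter filter on dim probe sets, 4719 with the background covariate, and 772 to 2400 when a pig or array was left out. The members' median of 0.32 became 0.12 with array weights, 0.45 with the stricter filter on dim probe sets, 0.16 with the covariate, 0.20 without the 2 arrays of highest background, 0.021 when each gene was averaged over its probe sets, 0.025 with the second brightest, and 0.063 to 0.31 when a pig or array was left out. The count of members with an unadjusted p under 0.05 was 2 with array weights or the covariate, 0 without the high-background arrays or with the second brightest probe sets, and 0 to 1 with a pig or array left out. LPL turned to 0.12 with array weights, 0.014 with the covariate and 0.12 with the second probe set, and ran from -0.85 to 0.47 with a pig or array left out. FABP4, under background throughout, had 0.17 as reported, -0.0065 without the high-background arrays and -0.072 with the second probe set. PPARG turned to -0.13 when averaged over its probe sets and -0.69 with the second, and NCOA3 to 0.024 when averaged. With a pig or array left out, CD36 ran from -0.50 to 1.47, ABCG1 from -0.66 to 0.29 and PPARG from -0.048 to 0.78. Causes were not tested. Signals near the background controls limit what can be read for LPL, FABP4, ABCG1 and most CD36 probe sets.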
